A study of Mus musculus with 28 samples.

Results

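The plasma cell program is represented here by 9 genes: Prdm1, Irf4, Xbp1, Sdc1, Tnfrsf17, Mzb1, Derl3, Fkbp11 and Eaf2. They were taken by symbol and matched to the Ensembl mouse identifiers of the count table, which found all 9 of the 9 among 38924 listed genes. RNA was measured in 28 mouse bone marrow libraries, 13 of long-term haematopoietic stem cells (LT-HSC, the self-renewing cells at the top of blood formation) and 15 of MPP3, a multipotent progenitor population biased to the myeloid lineage. Marrow of young C57BL/6 donors, either Mx1-Cre control or Dnmt3a mutant (D3aMut), had been placed into young or old CD45.1 recipients, and the cells were taken back 4 months later. LT-HSC came from 3 old control, 4 old mutant, 4 young control and 2 young mutant libraries, where old and young refer to the recipient. MPP3 came from 4 old control, 4 old mutant, 4 young control and 3 young mutant libraries. Mx1-Cre is an interferon-inducible recombinase transgene carried by the control marrow, and the labels describe neither the mutant Dnmt3a allele nor the gates of the sort. Every LT-HSC library and most MPP3 libraries of old recipients pooled 2 recipients, and each library of young recipients came from 1.

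A B cell that becomes a plasma cell stops dividing and turns its secretory pathway over to antibody. Prdm1 encodes Blimp-1, a repressor that shuts off the B cell program, and Irf4 encodes a transcription factor that B cells need to enter the plasma cell state. Xbp1 encodes the transcription factor of the unfolded protein response that enlarges the endoplasmic reticulum, and several genes of the secretory apparatus are among its targets. Plasma cells are long-lived residents of the bone marrow, while stem and progenitor cells there are not known to secrete antibody.

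The bases just before the transcription start are shown for Prdm1, Derl3, Xbp1 and Irf4. Over all 15 MPP3 libraries 2 pairs were called as correlated, Prdm1 with Derl3 and Xbp1 with Irf4. Among the 8 MPP3 libraries with immunoglobulin at or under 1% of counts, 0 of 21 pairs were called. Xbp1 with Irf4 was also not called once the mean of each group was removed. Each run holds the 250 bases before a RefSeq start, 5′ to 3′ on the strand of the gene, in build GRCm38.p6. Derl3 lies at chr10:75893148-75893397 on the plus strand, Prdm1 at chr10:44458749-44458998 on the minus strand, Xbp1 at chr11:5520391-5520640 on the plus strand and Irf4 at chr13:30748983-30749232 on the plus strand. Capitals mark CCACG on either strand and, in Derl3, the endoplasmic reticulum stress element.
Derl3: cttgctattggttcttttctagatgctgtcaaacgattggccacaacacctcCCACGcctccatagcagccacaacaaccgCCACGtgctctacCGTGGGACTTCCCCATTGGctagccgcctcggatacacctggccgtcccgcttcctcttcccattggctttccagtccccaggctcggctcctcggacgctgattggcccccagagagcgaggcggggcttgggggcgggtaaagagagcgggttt
Prdm1: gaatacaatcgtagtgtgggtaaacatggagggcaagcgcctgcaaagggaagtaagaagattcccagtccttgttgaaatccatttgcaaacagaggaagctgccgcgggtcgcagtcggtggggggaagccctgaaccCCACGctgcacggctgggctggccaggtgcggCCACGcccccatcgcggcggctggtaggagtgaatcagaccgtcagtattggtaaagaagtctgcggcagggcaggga
Xbp1: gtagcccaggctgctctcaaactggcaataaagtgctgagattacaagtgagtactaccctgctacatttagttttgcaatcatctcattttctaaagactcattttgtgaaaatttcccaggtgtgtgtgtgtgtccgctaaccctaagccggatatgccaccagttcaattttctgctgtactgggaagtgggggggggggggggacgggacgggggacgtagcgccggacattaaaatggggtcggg
Irf4: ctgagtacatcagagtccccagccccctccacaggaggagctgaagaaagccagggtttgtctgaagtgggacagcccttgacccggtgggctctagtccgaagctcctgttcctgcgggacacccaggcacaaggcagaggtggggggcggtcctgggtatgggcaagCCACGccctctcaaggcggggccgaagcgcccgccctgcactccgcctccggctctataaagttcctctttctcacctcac
The stress element (ERSE, read as CCAAT, any 9 bases, CCACG) is a site known to be used by ATF6 and XBP1, and the minus strand of Derl3 holds it from 156 to 138 bases before the start. It occurred in 37 of 32851 mouse promoters of this length (0.113%), and Derl3 was the only one of the 8 genes with a RefSeq entry that held it. Its CCACG end overlaps 1 of the 3 CCACG matches of Derl3. CCACG alone stood in 28.3% of all promoters and in 5 of the 11 promoters of these 8 genes, those of Derl3, Prdm1, Irf4 and Sdc1 and 1 of the 2 starts of Fkbp11. The other XBP1 element, TGACGTGG (0.563% of promoters), the PRDM1 motif AGNGAAAG (7.30%) and the PU.1 with IRF composite (GGAA, any 2 bases, GAAA, 2.30%) were in none of the 11, and the window of Xbp1 held no match to any motif searched.

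Libraries held 5.59 to 10.8 M counts, and levels below are counts per M after TMM scaling (CPM). Among genes known to mark LT-HSC, 11 of 12 were called lower in MPP3 than in LT-HSC and 0 higher. Slamf1, a surface receptor of LT-HSC, had 68.0 ± 48.8 CPM in LT-HSC (SD, n = 13) and 1.89 ± 3.28 CPM in MPP3 (n = 15). Of 10 progenitor genes, 9 were called higher in MPP3 and 1 lower, Kit. Mpo, a granule enzyme of myeloid progenitors, had 322 ± 791 CPM in LT-HSC against 16736 ± 7861 CPM in MPP3. Immunoglobulin and J chain genes took 0.222% to 5.80% of the counts in MPP3. In LT-HSC they took at most 0.0247% in 11 libraries, while old mutant replicates 1 and 4 stood apart at 1.33% and 1.61%. Dnmt3a itself overlapped between genotypes, at 44.3 to 131 CPM in control and 41.9 to 161 CPM in mutant LT-HSC and at 47.1 to 238 and 62.3 to 134 CPM in MPP3. Since the allele is not described, these levels check no label. Results are also given without the 9 libraries over 1%, which are these 2, all 4 old mutant MPP3 libraries, young mutant MPP3 replicates 1 and 3 and young control MPP3 replicate 3. Without them no old mutant MPP3 library remains, so the old mutant group leaves the comparison between cell types. Fewer genes are then called among all genes as well. The RNA comes from pools of cells, so fewer cells of a type and less RNA per cell cannot be told apart.

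MPP3 held more RNA of the plasma cell program than LT-HSC. Of the 8 genes that could be fitted, 7 were called higher in MPP3 and none lower (edgeR's quasi-likelihood test, adjusted p under 0.05), where 12.2% of 16309 genes were called, 6.35% higher and 5.89% lower. The 7 were Irf4, Sdc1, Mzb1, Derl3, Fkbp11, Xbp1 and Prdm1, and Eaf2 was not called. The median log2 change of the 8 was 4.83, against 0.05 for all genes tested. Sdc1 and Derl3 passed the count filter only through MPP3, so they could not have been called lower. The absence of lower calls and the size of the median rest partly on that filter. The sizes were of 2 kinds. Irf4, Prdm1, Sdc1, Mzb1, Derl3 and Fkbp11 each had a median of 0 CPM in LT-HSC. Their MPP3 medians ran from 1.90 CPM (Sdc1) to 38.3 CPM (Irf4), and Sdc1, Mzb1, Derl3 and Fkbp11 were at 0 in some MPP3 libraries. An exception in LT-HSC was old mutant replicate 4, with 27.9 to 36.4 CPM of Prdm1, Mzb1 and Derl3. Xbp1, by contrast, was well above 0 in every library of both cell types. In none of these genes did all MPP3 libraries lie above all LT-HSC libraries, as was the case for 0.233% of all genes tested.

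**Figure D1:**
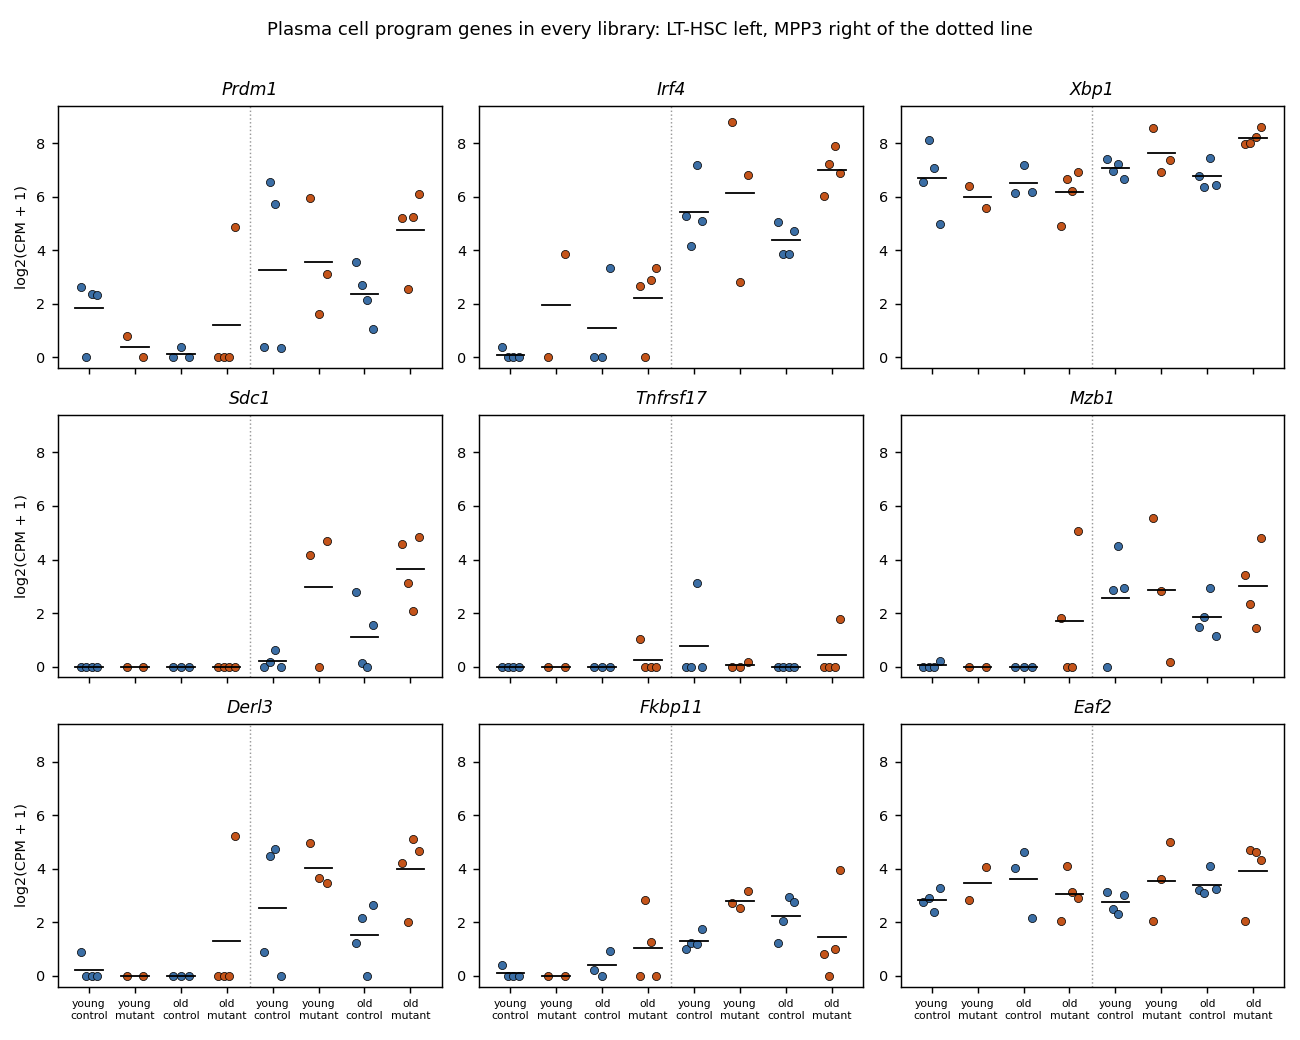
Level of each of the 9 genes in every library as log2(CPM + 1) (vertical axis), by cell type, recipient age and genotype (horizontal axis); points are libraries, blue control and orange Dnmt3a mutant, and bars are group means. Xbp1 and Eaf2 are detected in all 28 libraries, Sdc1 is at 0 in all 13 LT-HSC libraries, and 1 old mutant LT-HSC library stands high in Prdm1, Mzb1 and Derl3.

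Irf4 (chr13:30749226-30766976, plus strand, GRCm38) was the gene of the program with the smallest adjusted p. In LT-HSC it was counted in 6 of 13 libraries and reached at most 13.6 CPM, with a median of 0. All 15 MPP3 libraries held it. Old control MPP3 had 32.4, 13.7, 13.5 and 25.5 CPM, and old mutant MPP3 had 64.5, 148, 240 and 117 CPM. Young control MPP3 had 38.3, 16.8, 145 and 33.2 CPM, and young mutant MPP3 had 442, 6.07 and 112 CPM. The lowest and the highest MPP3 value both came from young mutants. The MPP3 to LT-HSC difference was 5.37 (log2, SE 0.94, edgeR adjusted p = 0.000263). Without the 9 libraries high in immunoglobulin the difference was 3.61 (SE 1.30) and was not called (edgeR adjusted p = 0.148).

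Prdm1 (chr10:44437177-44528501, minus strand) was counted in 6 of 13 LT-HSC libraries and in all 15 MPP3 libraries. Its LT-HSC values were 0, 0.318 and 0 CPM in old controls, 0, 0, 0 and 27.9 CPM in old mutants, 5.20, 0, 4.19 and 3.98 CPM in young controls and 0.725 and 0 CPM in young mutants. Apart from 1 old mutant library, the young controls were the LT-HSC group in which the repressor was most often seen, in 3 of 4 libraries. MPP3 values were 10.8, 5.52, 3.46 and 1.10 CPM in old controls, 36.1, 4.83, 36.7 and 67.8 CPM in old mutants, 0.289, 92.7, 51.9 and 0.273 CPM in young controls and 61.7, 2.07 and 7.54 CPM in young mutants. The young controls split into 2 libraries over 50 CPM and 2 under 1 CPM. The MPP3 to LT-HSC difference was 4.30 (log2, SE 1.2, edgeR adjusted p = 0.0171). It was no longer called with the recipients as a block, at 4.33 and an edgeR adjusted p of 0.0665, nor without the libraries high in immunoglobulin, at 3.69 and an edgeR adjusted p of 0.174.

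Xbp1 (chr11:5520659-5525893, plus strand) was the most abundant member per length, with a median of 50.2 CPM per kb of exon in MPP3 and 25.7 in LT-HSC. The next in MPP3 were Irf4 at 7.81, Derl3 and Mzb1 both at 5.0, Eaf2 at 1.90 and Prdm1 at 1.35 CPM per kb. Counts per gene do not separate the unspliced Xbp1 messenger from the form spliced by IRE1, which encodes the active factor. LT-HSC ranged from 29.4 to 275 CPM with a median of 83.5. MPP3 had 109, 81.4, 174 and 86.0 CPM in old controls, 252, 256, 303 and 388 CPM in old mutants, 170, 122, 149 and 99.7 CPM in young controls and 376, 121 and 163 CPM in young mutants. By mean the MPP3 order was old mutant (300 ± 63.4 CPM, SD, n = 4), young mutant (220 ± 136, n = 3), young control (135 ± 30.6, n = 4) and old control (113 ± 42.8, n = 4), and each neighbouring pair in that order overlapped. The difference between cell types was 0.98 (log2, SE 0.27, edgeR adjusted p = 0.0162). It fell to 0.36 (SE 0.37) without the libraries high in immunoglobulin and was then not called (edgeR adjusted p = 0.781).

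Sdc1 (chr12:8771323-8793715, plus strand) encodes syndecan-1, the CD138 surface proteoglycan by which plasma cells are commonly sorted. No LT-HSC library held a count of it, which includes both LT-HSC libraries rich in immunoglobulin. In MPP3 it was found in 11 of 15 libraries. Old controls had 5.97, 0.106, 0 and 1.90 CPM, old mutants 22.7, 7.67, 3.24 and 27.8 CPM, young controls 0, 0.121, 0.548 and 0 CPM and young mutants 17.2, 0 and 24.7 CPM. Of the 7 libraries over 3 CPM, 6 were mutants and 1 was old control replicate 1. Against a floor of 3 counts per LT-HSC library (0.428 CPM), the MPP3 mean of 7.46 CPM was at least 17.4-fold higher, and the difference was called (edgeR adjusted p = 0.00221). Of those 7 libraries, 6 are among the 9 high in immunoglobulin. Without the 9, the mean of the 8 remaining MPP3 libraries was 1.01 CPM, at least 2.42-fold above the floor (0.417 CPM), and Sdc1 could not be fitted. Tnfrsf17 (chr16:11313812-11320074, plus strand) encodes BCMA, a survival receptor of plasma cells for the cytokines BAFF and APRIL. It was seen in 1 LT-HSC library, old mutant replicate 1 at 1.04 CPM. In MPP3 it was seen in 3, young control replicate 3 at 7.67, old mutant replicate 4 at 2.42 and young mutant replicate 3 at 0.128 CPM. With so few counts it could not be fitted.

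The secretory members were called as well. Mzb1 (chr18:35647267-35649367, minus strand) encodes a resident of the endoplasmic reticulum that assists immunoglobulin assembly, and it overlaps the annotated gene SPATA24 on the same strand. It was counted in 3 of 13 LT-HSC and 14 of 15 MPP3 libraries. MPP3 values were 1.77, 2.65, 6.67 and 1.2 CPM in old controls, 9.68, 4.00, 1.71 and 27.1 CPM in old mutants, 0, 6.18, 21.9 and 6.56 CPM in young controls and 46.2, 6.07 and 0.128 CPM in young mutants. The MPP3 groups overlapped throughout. The difference from LT-HSC was 6.33 (log2, SE 1.41, edgeR adjusted p = 0.00356). Without the libraries high in immunoglobulin it was still called, at 7.52 (SE 1.70). Among the LT-HSC libraries that then remained, only young control replicate 4 held Mzb1, at 0.153 CPM. In that fit Mzb1 could therefore not have been called lower.

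Derl3 (chr10:75893413-75895941, plus strand) belongs to the derlins, which help to move misfolded proteins out of the endoplasmic reticulum. It was counted in 2 LT-HSC libraries, old mutant replicate 4 at 36.4 CPM and young control replicate 1 at 0.849 CPM. MPP3 values were 1.33, 3.5, 0 and 5.30 CPM in old controls, 17.7, 3.00, 33.3 and 24.4 CPM in old mutants, 0.867, 21.4, 25.7 and 0 CPM in young controls and 29.9, 11.5 and 9.97 CPM in young mutants. As for Prdm1, young control replicates 2 and 3 were high and replicates 1 and 4 were low. The difference between cell types was 6.02 (log2, SE 1.51, edgeR adjusted p = 0.00891), and 7.27 (SE 1.98) with an edgeR adjusted p of 0.0558 without the libraries high in immunoglobulin.

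Fkbp11 (chr15:98724366-98728198, minus strand) encodes a prolyl isomerase of the secretory pathway. LT-HSC libraries held 0 to 6.19 CPM with counts in 5 of 13. MPP3 values were 1.33, 3.18, 6.67 and 5.70 CPM in old controls, 0.774, 0, 1.02 and 14.7 CPM in old mutants, 1.01, 1.33, 1.28 and 2.32 CPM in young controls and 5.55, 4.74 and 7.93 CPM in young mutants. The 1 MPP3 library at 0 was an old mutant rich in immunoglobulin, and the highest was another old mutant. The difference between cell types was 4.26 (log2, SE 1.16, edgeR adjusted p = 0.0144). It was 5.23 (SE 1.37, edgeR adjusted p = 0.0384) without the libraries high in immunoglobulin, and it was not called with the recipients as a block (4.73, edgeR adjusted p = 0.0576). Eaf2 (chr16:36792884-36875003, minus strand) encodes a partner of the elongation factor ELL and overlaps Iqcb1 on the other strand, and the strand setting of the counting is not given in the sources used here. It was present in all libraries at 3.11 to 23.9 CPM in LT-HSC and 3.10 to 31.5 CPM in MPP3. Its difference was 0.24 (log2, SE 0.48, edgeR adjusted p = 0.892).

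Leaving out 1 young mutant LT-HSC library, of only 2, left 4 members called without replicate 1 (Sdc1, Xbp1, Mzb1 and Irf4) and 3 without replicate 2 (Sdc1, Mzb1 and Irf4), and the remaining library of that group was then assumed to vary like the others. Within the 2 sequencing pools that the column names imply, 0 members were called in pool 1, where 100 genes were called in all, and 1 in pool 2, Irf4, where 375 were. The fitted log2 differences of the 7 genes ran from 1.26 (Xbp1) to 9.36 (Sdc1) in pool 1 and from 1.19 (Xbp1) to 9.18 (Derl3) in pool 2, with larger standard errors for each gene than in all 28 libraries.

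**Figure D2:**
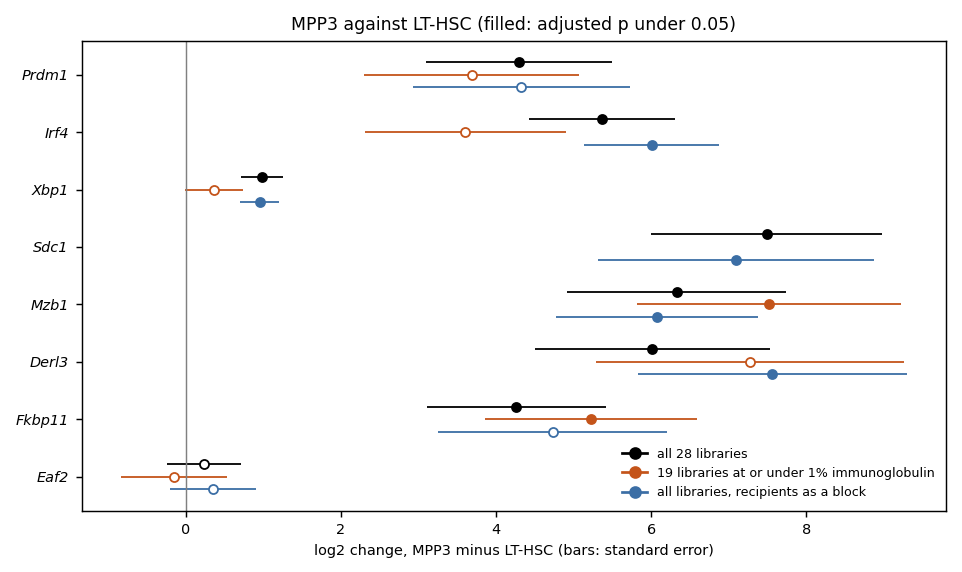
Log2 difference between MPP3 and LT-HSC (horizontal axis, bars are standard errors) for the 8 genes that could be fitted (vertical axis), in all 28 libraries, in the 19 libraries at or under 1% immunoglobulin, and with recipients as a block; filled points have an edgeR adjusted p under 0.05. Mzb1 and Fkbp11 stay filled without the libraries high in immunoglobulin, Sdc1 could not be fitted there, and Eaf2 is open throughout.

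The wider secretory program differed in the same direction. Of 52 genes of the unfolded protein response and of protein secretion, 26 were called higher in MPP3 and 0 lower. Among all genes tested 6.35% were called higher and 5.89% lower. The median log2 change of the 52 was 0.85, against 0.05 for all genes. Main chaperones of the endoplasmic reticulum lumen were among them. Hspa5, which encodes BiP, rose from 256 ± 83.1 CPM (SD, n = 13) to 631 ± 227 CPM (n = 15), and Hsp90b1, which encodes GRP94, from 356 ± 81.7 to 993 ± 422 CPM. The calcium-binding chaperone gene Calr stood at 211 ± 83.4 CPM in LT-HSC and 602 ± 220 CPM in MPP3, and the disulfide isomerase gene Pdia4 at 27.4 ± 11.1 and 111 ± 51.6 CPM. Sdf2l1, a cofactor of BiP, showed the largest log2 change of these called genes, 3.61 (SE 0.67). The sensor Ern1, which encodes the IRE1 that splices Xbp1, had 157 ± 101 CPM in LT-HSC and 114 ± 36.3 CPM in MPP3 and was not called. The summed level of the 52 genes did not overlap between cell types, at 3206 to 4721 CPM in LT-HSC and 5228 to 12249 CPM in MPP3. How often sums of other genes separate the cell types was not tested.

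Other lists around the plasma cell state were less uniform. Of 23 tested further plasma cell genes, 8 were called higher in MPP3 and 1 lower. The 8 were Slamf7, Cxcr4, Pou2af1, Ccr9, Txndc5, Ccr10, Chst1 and Tnfrsf13c, and the 1 was Zbtb20, at 582 CPM in LT-HSC against 203 CPM in MPP3. Pou2af1, a B cell coactivator of immunoglobulin transcription, had a mean of 47.9 CPM in LT-HSC and 270 CPM in MPP3. Of 8 tested repressors and ligands, 3 were called higher, Pax5, Spib and Ets1. Pax5 is the B cell identity factor that Blimp-1 represses, and its mean was 1.19 CPM in LT-HSC and 33.3 CPM in MPP3 (log2 4.63, SE 0.80).

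Genes of several other cell types were also higher in MPP3 and those of others were lower. Their part in the differences of the plasma cell genes was not tested. Of 20 tested B cell genes 14 were called higher in MPP3 and 0 lower, with a summed level of 202 to 1574 CPM in LT-HSC and 427 to 6522 CPM in MPP3. They included genes of early B cell precursors such as Dntt, at 0 in every LT-HSC library and at a mean of 89.5 CPM in MPP3. Such a gene could not have been called lower. Of 9 tested genes of plasmacytoid dendritic cells, another secretory cell type of the marrow, 6 were called higher and 0 lower, summing to 317 to 829 CPM in LT-HSC and 615 to 1246 CPM in MPP3. Of 10 tested monocyte and macrophage genes 5 were called higher and 0 lower, with summed levels of 9.46 to 449 CPM in LT-HSC and 82.1 to 433 CPM in MPP3. Of 11 tested neutrophil genes 4 were called higher and 0 lower, the granule enzyme genes Elane, Mpo, Prtn3 and Ctsg. That list summed to 59.8 to 19741 CPM in LT-HSC and 8728 to 47989 CPM in MPP3. Elane and Mpo are also among the progenitor genes, which summed to 9468 to 45836 CPM in MPP3. The neutrophil sums in MPP3 therefore do not mark neutrophils alone. Of 8 tested T and NK cell genes 3 were called higher and 1 lower, with a median log2 change of -0.45. Of 12 tested erythroid and megakaryocyte genes 1 was called higher and 4 lower (median -2.31). Of 6 tested stromal and endothelial genes 0 were called higher and 2 lower (median -1.19). Immunoglobulin constant and J chain genes were called higher in 5 of 7 tested. Igha, the constant region of IgA, had a mean of 1.56 CPM in LT-HSC and 7605 CPM in MPP3. Ighm, that of IgM, was at 10033 and 13846 CPM in the LT-HSC libraries over 1% and at 176 CPM or less in the other 11, and it ranged from 141 to 7796 CPM in MPP3. Its fitted difference was 3.66 (log2, SE 1.23), higher in MPP3, and was not called (edgeR adjusted p = 0.0568).

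The LT-HSC libraries rich in immunoglobulin differed from each other in the plasma cell program. Old mutant replicate 4 had 36.4 CPM of Derl3, 32.4 CPM of Mzb1 and 27.9 CPM of Prdm1, where the other 3 old mutant LT-HSC libraries had 0 of Derl3, 0 of Prdm1 and at most 2.52 CPM of Mzb1. Old mutant replicate 1 had nearly as much immunoglobulin but held neither Derl3 nor Prdm1, and it had the lowest Xbp1 level of all 28 libraries, 29.4 CPM. Both lacked Sdc1. Immunoglobulin in both was mainly Ighm, 10033 CPM in replicate 1 and 13846 CPM in replicate 4, with Igha at 2.97 and 1.22 CPM. In MPP3 Igha exceeded Ighm in 13 of 15 libraries. Replicate 4 also had the highest summed neutrophil genes (19741 CPM) and erythroid and megakaryocyte genes (16179 CPM) of the 13 LT-HSC libraries. Its sums of B cell genes (1574 CPM) and of monocyte and macrophage genes (449 CPM) were the highest there too. The sum of LT-HSC genes was lowest in replicate 4 (1590 CPM) and highest in replicate 1 (4835 CPM). The part of other cells in the values of replicate 4 was not tested.

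The Dnmt3a genotype was compared with control within each recipient age. In MPP3 of old recipients 7 of 8 members had higher fitted levels in mutants, with a median log2 change of 2.28 against 0.05 for all genes. None of the 8 was called (edgeR adjusted p), where 0 of 13933 genes were (0%). At an unadjusted p under 0.05 there were 3, Xbp1, Irf4 and Derl3, where 5.77% of genes passed. DESeq2 called 1 member, Xbp1, and 0.402% of genes. Both Xbp1 and Irf4 separated the groups in full, with every old mutant library above every old control library, as 1.36% of genes did.

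For Xbp1 the old mutant MPP3 values began at 252 CPM and the old control values ended at 174 CPM. The log2 difference was 1.43 (SE 0.35, edgeR adjusted p = 0.687), and DESeq2 gave an adjusted p of 0.0317. For Irf4 the lowest old mutant value was 64.5 CPM and the highest old control value 32.4 CPM. Its difference was 2.76 (log2, SE 0.84, edgeR adjusted p = 0.847). Derl3 differed by 2.94 (SE 1.36, edgeR adjusted p = 0.854), with old mutant replicate 2 inside the control range. Differences for Sdc1 (2.96, SE 1.56), Prdm1 (2.81, SE 1.35), Mzb1 (1.80, SE 1.38) and Eaf2 (0.82, SE 0.78) did not pass even without adjustment. Fkbp11 was level at -0.02 (SE 1.28). All 4 old mutant MPP3 libraries held 1.79% to 4.98% immunoglobulin and all 4 old controls held under 1%, so genotype and immunoglobulin content cannot be told apart here. Markers of some other cells moved the same way and those of others did not, and their part was not tested. Of 20 tested B cell genes 19 had higher fitted levels in old mutants (median 1.48, 0 called). Their summed level did not overlap, at 1032 to 3702 CPM in old mutants and 427 to 767 CPM in old controls. How often sums of other genes separate these groups was not tested. Of 13 tested neutrophil genes 11 were higher (median 1.13, 0 called), with overlapping sums of 9026 to 47989 CPM and 8728 to 23065 CPM. That list shares Elane and Mpo with the progenitor genes, of which 4 of 10 were higher (median -0.09). Of 10 tested erythroid and megakaryocyte genes 0 were higher (median -0.87), and of 10 monocyte and macrophage genes 4 were (median -0.13). For T and NK cell genes it was 4 of 7, and for plasmacytoid dendritic cell genes 6 of 11.

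In MPP3 of young recipients 7 of 8 members also had higher fitted levels in mutants, with a median log2 change of 1.19 against -0.04 for all genes. None was called (edgeR adjusted p), where 0 of 13933 genes were (0%), 1 passed the unadjusted threshold, as 6.07% of genes did, and DESeq2 called 1, as it did 0.388% of genes. In both cases it was Sdc1, at 6.34 (log2, SE 1.93, edgeR adjusted p = 0.793), which rests on 2 of the 3 young mutant libraries because the other was at 0. DESeq2 gave it an adjusted p of 0.0327. Fkbp11 was the member whose young groups did not overlap, 4.74 CPM or more in mutants and 2.32 CPM or less in controls, as for 2.65% of genes, and its difference was 2.02 (SE 1.40, edgeR adjusted p = 0.911). With the libraries over 1% immunoglobulin left out, 1 young mutant library remained, and the fitted differences became -1.94 for Sdc1, -2.27 for Irf4 and -0.11 for Xbp1. All 20 tested B cell genes had higher fitted levels in young mutants (median 1.86, 0 called), with summed levels of 971 to 6522 CPM in mutants and 554 to 1135 CPM in controls, and their part was not tested.

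**Figure D3:**
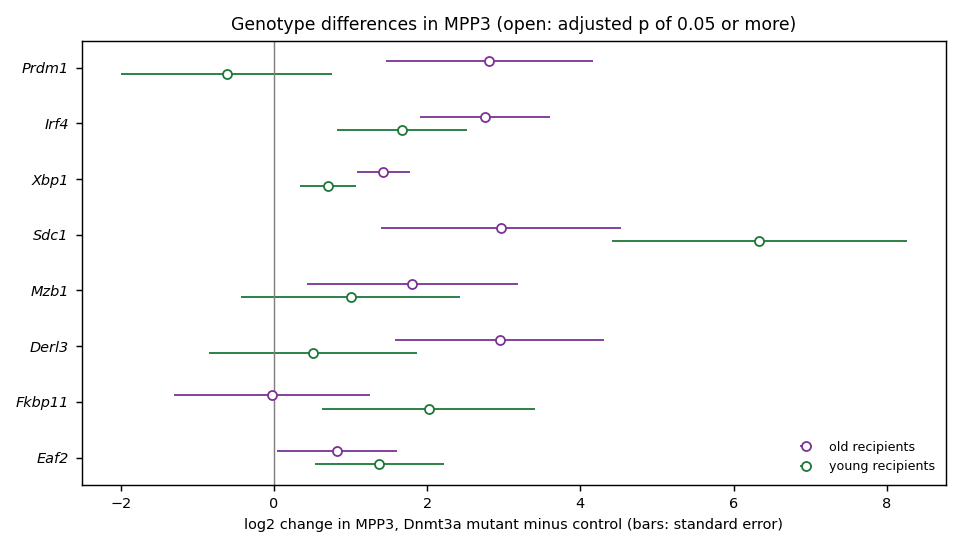
Log2 difference between Dnmt3a mutant and control MPP3 (horizontal axis, bars are standard errors) for 8 genes (vertical axis), in old recipients (purple) and young recipients (green), from edgeR. All points are open because no gene reached an adjusted p under 0.05; the old recipient points lie above 0 for all but Fkbp11, and the young recipient points for all but Prdm1.

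In LT-HSC 5 members (Xbp1, Prdm1, Mzb1, Irf4 and Eaf2) had enough counts for the genotype fits. None was called in old recipients, where the background was 0% and 1 passed without adjustment, Mzb1 (edgeR adjusted p = 0.478), against 10.2% of genes. None was called in young recipients, where the background was again 0% and Irf4 passed without adjustment (edgeR adjusted p = 1) against 2.96% of genes. Each rested on 1 or 2 libraries, since Mzb1 was at 0 in 2 of 4 old mutants and Irf4 was at 0 in 1 of 2 young mutants. DESeq2 called 0 of 5 members in both, where it called 2.6% of genes in old and 0.946% in young recipients, so 0 of 5 is near the background.

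Recipient age gave no called member either. In control MPP3 the background was 0%, and 3 of 8 fitted differences were higher in old recipients, with a median of -0.87. Sdc1 (log2 3.53, SE 1.72) and Prdm1 (log2 -2.81, SE 1.35) lay farthest from 0, and in mutant MPP3 all 8 lay between -0.70 and 0.62. No member passed even the unadjusted edgeR threshold in MPP3, where 6.12% of genes did in controls and 5.28% in mutants. In LT-HSC 0 of 5 passed it in controls, where 6.09% of genes did. In mutants 1 passed, Mzb1 (edgeR adjusted p = 0.723), where 6.46% of genes did. The test of whether the genotype difference depended on age called 0 of 8 members in MPP3 and 0 of 5 in LT-HSC (edgeR, background 0%). At an unadjusted p under 0.05 there were 0 in MPP3, where 5.4% of genes passed, and 1 in LT-HSC, where 7.88% did. DESeq2 called 0 members in each age and interaction comparison. It called 1% of genes for age in control and 2.17% in mutant LT-HSC, 0.222% in control and 0.402% in mutant MPP3, and 1.79% and 0.294% for the interaction in LT-HSC and MPP3. With such shares, 0 of 5 or 8 members is near the background.

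Relations across libraries were read within each cell type from log2(CPM + 1). Among the 11 LT-HSC libraries at or under 1% immunoglobulin, 0 of 10 member pairs were correlated after Benjamini-Hochberg adjustment of permutation p-values, 0 without adjustment, and the median Pearson r was -0.14. None of 5 members (Xbp1, Prdm1, Irf4, Eaf2 and Fkbp11) followed the summed immunoglobulin constant and J chain level there. The nearest was Irf4 (r = 0.69, rho = 0.57, permutation p = 0.0153, adjusted p = 0.0764). Mzb1 had too few counts in LT-HSC to be correlated. Among the 8 MPP3 libraries at or under 1%, 0 of 21 pairs were correlated (exact permutation tests, 1 at an unadjusted p under 0.05) and the median r was -0.05. None of 7 members followed immunoglobulin there, and 1 passed without adjustment, Mzb1, with r = -0.72 (rho = -0.76, exact p = 0.044, adjusted p = 0.242), or -0.25 without the 2 libraries farthest from the median immunoglobulin level.

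Over all 15 MPP3 libraries, whose immunoglobulin content spread without a gap, more pairs went together. Of 28 pairs 24 had a positive r, the median r was 0.26, and 2 pairs were called. How often pairs of other genes were positive or called in these libraries was not tested. Prdm1 went with Derl3 at r = 0.81 (rho = 0.79, permutation p = 0.00042, adjusted p = 0.0118), and r was 0.78 without the 2 farthest libraries. With the group means removed it was 0.81 (adjusted p = 0.00952, permutation). Within pool 1 (n = 6) r was 0.91 and within pool 2 (n = 9) it was 0.79, with exact adjusted p-values of 0.23 and 0.36. Xbp1 went with Irf4 at r = 0.75 (rho = 0.70, permutation p = 0.0016, adjusted p = 0.0224), but the adjusted p of rho was 0.0728, and with the group means removed r was 0.59 (permutation adjusted p = 0.179). Within pools 1 and 2 it was 0.90 and 0.58, with exact adjusted p-values of 0.143 and 0.515. Prdm1 and Derl3 carry 2 and 3 CCACG matches in the runs printed above, Irf4 carries 1 and Xbp1 none. Sdc1 and Fkbp11, which are in neither pair, carry CCACG too. A link between these matches and the correlations was not tested.

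More members went with immunoglobulin content. Of 8 tested over the 15 MPP3 libraries, 5 were positively correlated with it at an unadjusted permutation p under 0.05, as were 2.62% of 15249 genes, immunoglobulin genes left out. The median r of all these genes was -0.04. The same 5 passed with adjustment over the 8 members, and none did with adjustment over all 15249 genes, where 0% of genes passed and the smallest adjusted permutation p of a member was 0.283. The adjusted values that follow are over the 8. Irf4 had r = 0.87 (rho = 0.83, permutation p = 5e-05, adjusted p = 0.0004) and r = 0.85 without the 2 farthest libraries. Xbp1 had r = 0.85 (rho = 0.76, adjusted permutation p = 0.00052) and 0.75 without those. Sdc1 had 0.77 (rho = 0.79, adjusted permutation p = 0.00392), Prdm1 0.69 (rho = 0.66) and Derl3 0.69 (rho = 0.69), the last pair both with an adjusted permutation p of 0.0102. Mzb1 did not pass at 0.47 (rho = 0.36, adjusted permutation p = 0.106). Eaf2 and Fkbp11 were flat at -0.02 and -0.04. With group means removed 4 of 8 still passed over the 8, Irf4, Xbp1, Sdc1 and Prdm1, against 4.77% of all genes at an unadjusted p under 0.05 with a positive r. By rho only 2 did, Sdc1 and Irf4, and with adjustment over all genes none did (0.0262% of genes). Within pool 1 (n = 6, exact permutation) 3 passed, Xbp1, Sdc1 and Irf4, and within pool 2 (n = 9, exact permutation) 1 did, Irf4 at r = 0.85 (adjusted p = 0.0366), and none passed by rho in either pool.

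**Figure D4:**
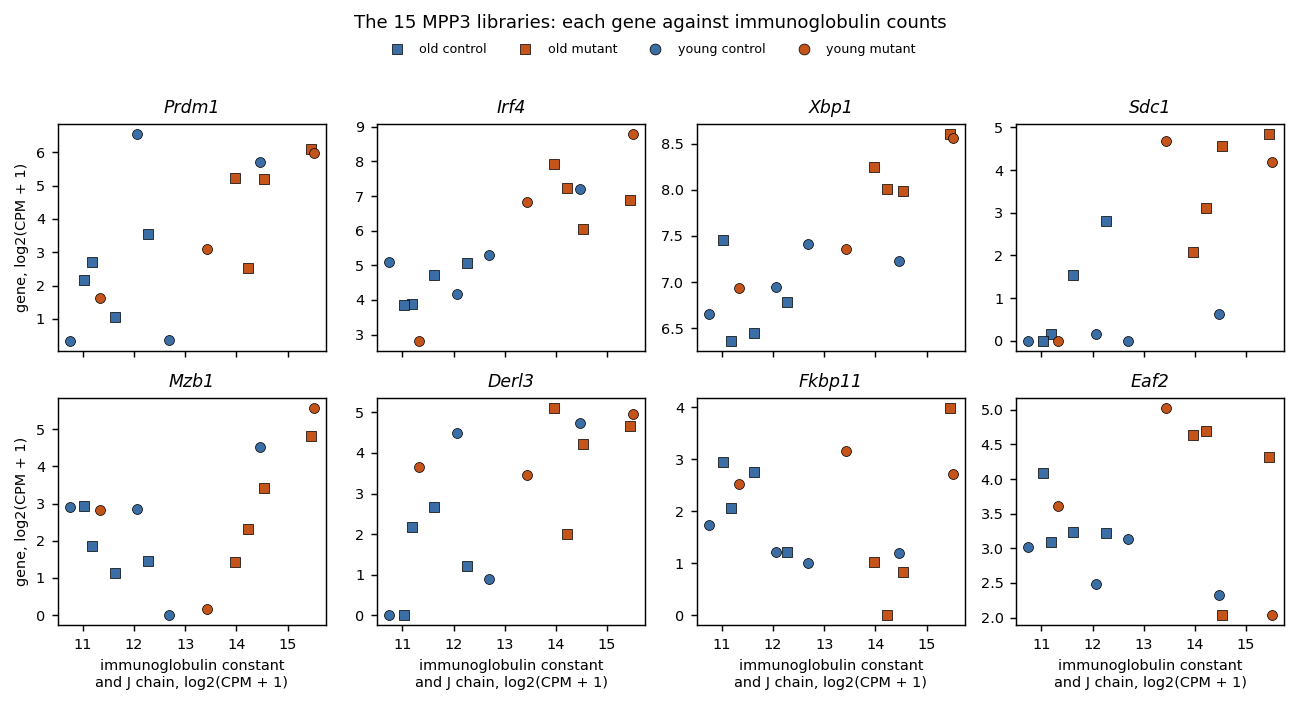
Level of 8 genes (vertical axes, log2(CPM + 1), each panel with its own scale) against the summed level of immunoglobulin constant and J chain genes (horizontal axes, log2(CPM + 1)) in the 15 MPP3 libraries; squares are old and circles young recipients, blue control and orange Dnmt3a mutant. Irf4 (r = 0.87) and Xbp1 (r = 0.85) climb with immunoglobulin, while Fkbp11 (r = -0.04) and Eaf2 (r = -0.02) do not.

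Genes with the most similar pattern were ranked by Spearman rho with the mean standardized level of the members, as a description. Over the 15 MPP3 libraries the 8 nearest of 13282 compared, immunoglobulin genes set aside, included Zfp26, St6gal1, Fndc9, Bhlha15, Cd74, Ctla4 and Gm15910, with rho from 0.84 to 0.76. Bhlha15 encodes Mist1, a secretory cell transcription factor, and St6gal1 a sialyltransferase that acts on glycoproteins such as immunoglobulin. Immunoglobulin genes made up 8 of the 50 nearest, against 0.723% of the genes compared. Over the 13 LT-HSC libraries, where the profile rested on 5 members, the 8 nearest included S100a11, Acox3, C77080, Akt2, Tuba1c, Hars and Bcl3, with rho from 0.91 to 0.86, and 0 of the 50 nearest were immunoglobulin genes, which were 0.103% of the genes compared there.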

How the data were processed

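Per the submitters' processing notes, reads were handled with Bowtie2 2.2.0, RSEM 1.2.12, SAMtools 0.1.18 and edgeR 3.5.3 on GRCm38; the role of each, the annotation and the strand setting are not given in the sources used here. Per the labels, polyadenylated RNA came from a column kit for small samples. The authors deposited 1 table of whole-number counts per gene, not normalized, for 28 samples; 0 columns belonged to no sample. Genes were named from GENCODE M21, which matched 37607 of 38924 identifiers, and promoter sequences are from RefSeq (GRCm38.p6), with a match for 8 of the 9 genes.

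From these counts, genes were kept with filterByExpr, scaled by TMM and tested with edgeR 4.0.16 quasi-likelihood fits in R 4.3.3, 2-sided, with p-values adjusted by Benjamini-Hochberg over all genes of a comparison at 0.05. All libraries of a cell type shared 1 fit, and all 28 shared the fit between cell types. Library totals were 5.59 to 10.8 M counts. A floor of 3 counts covers counting error only.

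Correlations used log2(CPM + 1) for genes over 3 counts in at least 3 libraries, with 100000 permutations, or exact enumeration below 10 libraries, in place of the 100000 planned for every size. The relation with immunoglobulin was also computed for all 15249 such genes in MPP3, a background added after seeing the data. The procedures were tested on simulated data. Members, lists and tests were chosen with earlier results of these data known. Named were the members, the 8 genes nearest in pattern (some are not reported here), and list genes that were called or abundant; Igha, Ighm, Dntt, Pax5 and Ern1 were picked once their values were known.

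LT-HSC and MPP3 libraries often came from the same recipients, so recipients were a block in an alternative fit; deviations of 14 such library pairs had a mean correlation of 0.01, with 0 over 0.1. Sequencing pools were inferred from the column names and are not stated in the labels. Alternatives were RLE scaling, no filter, DESeq2 1.42.0, other pseudocounts (0.25 and 4), removed immunoglobulin rows, a pool covariate, blocks, and leaving out libraries.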

Additional observations from a re-analysis of the deposited data

Results flagged for a closer look

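In 9 of 37 groups of 4 libraries with counts of a gene, 1 library lay far from the other 3 on the log2(CPM + 1) scale, by Dixon's criterion. In 6 of the 9 the other 3 libraries were all at 0, where the criterion is met whatever the value of the remaining one. The chance rate of about 1 in 20 groups (5%) holds for the other 3 at most. No explanation was tested for any of them.

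Old mutant LT-HSC replicate 4 stood out in 2 genes, with Prdm1 at 27.9 CPM and Derl3 at 36.4 CPM, where the other 3 libraries were at 0 for both genes. Young control LT-HSC replicate 2 was at 0 CPM of Prdm1 beside 3.98 to 5.20 CPM in the others. Young control LT-HSC replicate 1 was the library of its group with Derl3, at 0.849 CPM.

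Tnfrsf17, the BCMA gene, was flagged in each group of 4 where it exceeded 3 counts, because 1 library held it and the others were at 0. The values were 1.04 CPM in old mutant LT-HSC replicate 1, 2.42 CPM in old mutant MPP3 replicate 4 and 7.67 CPM in young control MPP3 replicate 3, all of them libraries with over 1% immunoglobulin.

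Eaf2 was high in old control MPP3 replicate 3, at 16.0 CPM beside 7.53 to 8.40 CPM. It was low in old mutant MPP3 replicate 1, at 3.10 CPM beside 18.9 to 24.8 CPM.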

How the results depend on the processing

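Of 949 recomputed values for 39 results, 887 kept their direction and side of the threshold. For MPP3 against LT-HSC, RLE scaling, no filter, DESeq2, removed immunoglobulin rows and a pool covariate left 7 members called. The shares of all genes called were then 12.2%, 8.47%, 17.8%, 12.2% and 11.1%. Fewer members were called without libraries over 1% immunoglobulin and within each pool (pool splits were added after seeing the data). The same held when either young mutant LT-HSC library or young mutant MPP3 replicate 1 was left out. All but the last of these fits had groups of 1 library. Each split leaves fewer samples. Calls over all genes fell as well without libraries over 1% immunoglobulin, within each pool, and when a young mutant LT-HSC library was left out. Without libraries over 1% immunoglobulin the log2 difference was smaller for Irf4, Prdm1 and Xbp1 (0.98 to 0.36). It was larger for Mzb1, Derl3 and Fkbp11 (4.26 to 5.23), and Sdc1 could not be fitted. Why members lost their calls was not tested. DESeq2 called 1 member for genotype in old MPP3 and 1 in young MPP3, where edgeR called 0.

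With a replicate block the 10 genotype, age and interaction comparisons still called 0 members; there same-numbered libraries come from different recipients (mean correlation of deviations 0.01 in 37 pairs, 2 over 0.1). With recipients as the replicate block, 5 members were called between cell types, Prdm1 and Fkbp11 being lost. In that fit 7.58% of all genes were called, against 12.2% without the block.

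The log2 difference of Eaf2 between cell types reversed to -0.15 without libraries over 1% immunoglobulin and to -0.85 within pool 1, and ranged from -0.036 to 0.42 over left-out libraries. For genotype in old MPP3, Fkbp11 was 0.13 with the pool covariate and -2.77 to 0.39 over left-out libraries. In young MPP3 without libraries over 1% immunoglobulin, Sdc1 was -1.94, Xbp1 -0.11 and Irf4 -2.27; Mzb1 was -0.46 with the pool covariate. Over left-out libraries there, Prdm1 ranged from -2.91 to 0.43, Mzb1 from -1.48 to 2.03 and Derl3 from -0.16 to 1.2. The cause was not tested.

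The counts of correlated members were 0 in both cell types at or under 1% immunoglobulin. With all libraries, 1 LT-HSC member rose with immunoglobulin, Irf4 (r = 0.72); with group means removed the count was also 1 but the gene was Fkbp11, with a negative r (-0.69), and in MPP3 2 pairs and 5 members did (1 pair and 4 members with group means removed, 3 members in pool 1, 1 in pool 2). Leaving out 1 library gave 0 to 1 members in each cell type. The genotype and age-in-mutant tests in old MPP3 and the MPP3 interaction could not be run without libraries over 1% immunoglobulin, since no old mutant library remained, nor could LT-HSC correlations in pool 2, which had under 6 libraries. Counts of a few per library limit Tnfrsf17, Sdc1 and, in LT-HSC, Mzb1 and Derl3.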
